A study of Homo sapiens with 6 samples.

Results

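Metalloproteases of the MMP, ADAM and ADAMTS families and their inhibitors, the TIMPs and RECK, were followed in MDA-MB-231 cells depleted of the transcription factor SOX4. The family was chosen with earlier results of these data known, and its members were set by name. They were every probe whose gene symbol is MMP, ADAM or ADAMTS followed by a number, or is TIMP1 to TIMP4 or RECK. This gave 73 gene symbols on 121 probes, out of 31426 symbols on 47322 probes of the Illumina HumanHT-12 v4 array. The 73 symbols were 24 MMP, 25 ADAM and 19 ADAMTS names and 5 inhibitors. All 73 matched a RefSeq gene, 67 names protein coding and 6 names pseudogenes, with ADAM5 and ADAM5P names of the same gene.

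MDA-MB-231 is a human breast cancer line of mesenchymal type. All cells were transduced with a short hairpin RNA (shRNA). It was a scrambled sequence in the control group and the hairpin shSOX4#1 in the other, with 3 arrays per group and no second hairpin among these samples. The labels do not say whether the transduced cells were a pool or a clone, or whether replicate samples were cultured apart. The p-values therefore reflect sample-to-sample spread, which may be technical. The mesenchymal markers VIM, CD44, S100A4, CAV1 and AXL were detected on the arrays, and CDH1, ESR1 and PGR were not. ERBB3, also listed as low or absent in this line, was detected on 2 scrambled and 3 SOX4 shRNA arrays. Its groups did not overlap (log2 difference 0.48, adjusted p = 0.065, limma, n = 3 per group). Of these markers S100A4 rose with the SOX4 hairpin by 0.38 on the log2 scale, while AXL fell by 0.31 and VIM fell by 0.23. The SOX4 probe had normalized log2 signals of 7.71, 7.996 and 7.96 on the scrambled arrays. On the SOX4 shRNA arrays it had 5.22, 5.75 and 5.42, with no overlap and a difference of -2.43. It was detected on 2 of the 3 SOX4 shRNA arrays, so the size of the difference rests partly on a signal at background.

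MMPs are zinc-dependent enzymes, secreted or held at the cell surface as inactive precursors, that cut collagens, gelatin and other parts of the extracellular matrix. ADAMs are membrane proteases that release the outer part of growth factors, cytokines and receptors, a process called shedding, and ADAMTS enzymes are secreted proteases that cut proteoglycans, procollagens and related matrix proteins. TIMPs bind the active site of these enzymes, and RECK is an inhibitor anchored in the membrane. In breast cancer cells the balance of these enzymes and inhibitors is studied for its part in invasion.

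Most of the family was not detected in these cells. A probe was called detected on an array when its deposited detection p was under 0.01, and a gene was tested when a probe was detected on at least 3 of the 6 arrays. This held for 18 of the 73 members, through 25 probes. Another 5 were detected on 1 or 2 arrays, and 50 were not detected on any. Of the MMPs, MMP1, MMP9 and MMP14 were tested. The gelatinase MMP2, the collagenases MMP8 and MMP13, the stromelysins MMP3, MMP10 and MMP11 and the matrilysins MMP7 and MMP26 were detected on no array. The same held for MMP12, MMP15, MMP16, MMP17, MMP19, MMP20, MMP21, MMP23B, MMP25, MMP27 and MMP28. MMP24 was detected on 1 array of each group and MMP23A on 1 scrambled array. These 2 MMP23 names belong to near-identical gene copies, so their probes are uncertain. MMP1 lies in a run of 9 neighbouring MMP genes on chromosome 11 (MMP7, MMP20, MMP27, MMP8, MMP10, MMP1, MMP3, MMP12 and MMP13, in RefSeq order of GRCh38.p14), and the other 8 were detected on no array.

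Of 9 ADAMs with protease activity in body tissues, ADAM8, ADAM9, ADAM10, ADAM15, ADAM17 and ADAM19 were tested, and ADAM12, ADAM28 and ADAM33 were detected on no array. Of 13 testis or other names, 0 were tested: ADAM2 and ADAM20 were detected on 1 SOX4 shRNA array each. ADAM7, ADAM18, ADAM21, ADAM29, ADAM30 and ADAM32 were detected on none, nor were the pseudogene names ADAM21P, ADAM3A, ADAM5, ADAM5P and ADAM6. The brain ADAMs without protease activity, ADAM11, ADAM22 and ADAM23, were likewise undetected. Among the ADAMTS enzymes, ADAMTS1, ADAMTS4, ADAMTS6 and ADAMTS9 were tested. ADAMTS13, which cuts von Willebrand factor, was detected on 1 SOX4 shRNA array. The procollagen N-proteinases ADAMTS2, ADAMTS3 and ADAMTS14 were not detected, and neither were ADAMTS5, ADAMTS7, ADAMTS8, ADAMTS10, ADAMTS12, ADAMTS15, ADAMTS16, ADAMTS17, ADAMTS18, ADAMTS19 or ADAMTS20. All 5 inhibitors were detected on all 6 arrays. An undetected member has a signal within the array's background, which does not show that its transcript is absent.

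**Figure D1:**
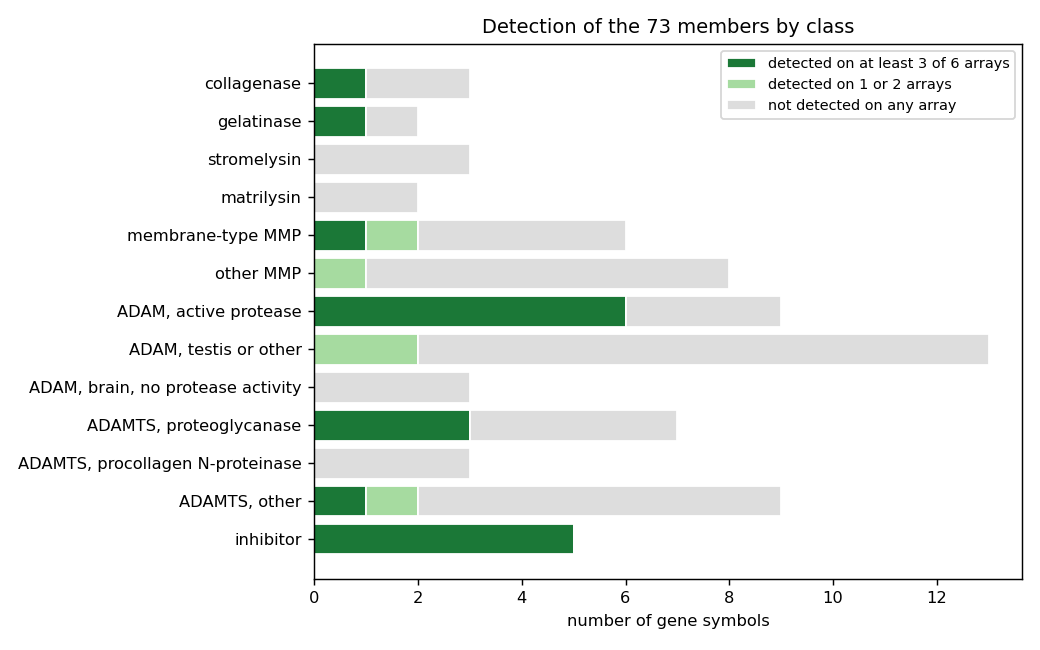
Number of gene symbols (x axis) in each class of metalloprotease or inhibitor (y axis), shaded by detection at a detection p under 0.01. All 5 inhibitors and 6 of 9 protease-active ADAMs were detected on at least 3 arrays, against 0 of 13 testis or other ADAMs.

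Of the 18 tested members, 5 rose and 6 fell with the SOX4 hairpin at an adjusted p under 0.05 in limma, which is 61.1% of them. Over all 12451 genes and unnamed probes tested, 30.6% passed this threshold, 15.2% upward and 15.4% downward. MMP9, ADAMTS9, TIMP2, TIMP4 and ADAM10 rose, and MMP1, ADAMTS1, ADAM9, ADAMTS6, ADAM15 and TIMP1 fell. The remaining 7, MMP14, ADAM8, ADAM17, ADAM19, ADAMTS4, TIMP3 and RECK, did not pass. Values of the 2 groups did not overlap for 14 of the 18 members (77.8%), against 42.0% of all genes tested. The median log2 difference of the tested members was -0.05, beside -0.01 over all genes tested, and the median size of the difference was 0.38 beside 0.16. MMP9 and ADAMTS9 entered the test only through the SOX4 shRNA arrays and ADAMTS1 only through the scrambled arrays, so these counts do not describe the undetected members. The arrays measure bulk RNA, so fewer cells with a transcript and less of it per cell cannot be told apart.

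**Figure D2:**
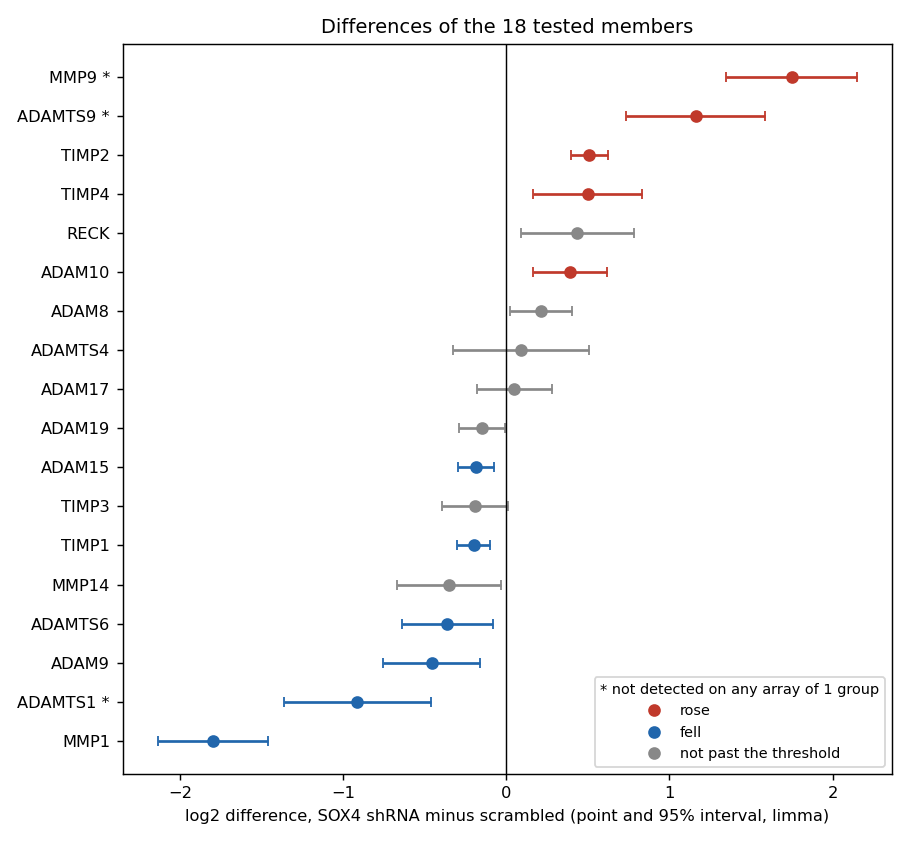
Log2 difference of normalized signal, SOX4 shRNA minus scrambled (x axis), for the 18 tested members (y axis), as the limma estimate with its 95% interval, n = 3 arrays per group. MMP9 (1.75) and MMP1 (-1.80) stand at the ends, and most other members lie within 1 log2 unit of 0.

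The collagenase and the gelatinase moved in opposite directions. MMP1, the interstitial collagenase that cuts fibrillar collagen, had normalized log2 signals of 7.32, 7.47 and 7.27 on the scrambled arrays and 6.06, 5.27 and 5.33 on the SOX4 shRNA arrays. All SOX4 shRNA values were below all scrambled values, replicate 1 was the highest of them, and replicate 2 was not above background. MMP1 fell by 1.80 ± 0.16 in log2 signal (SE, n = 3 per group), a 3.48-fold decrease with an adjusted p of 3.3e-09 in limma. Its deposited intensity went from 256 ± 20 to 149 ± 15 (SD, n = 3), on arrays whose median intensity ran from 119 to 124. Without SOX4 shRNA replicate 1 the difference was -2.05.

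MMP9, gelatinase B, stayed within background in the scrambled group, with log2 signals of 4.56, 4.33 and 4.32. On the SOX4 shRNA arrays it was detected each time, at 6.20, 6.08 and 6.18, a narrow range well clear of the control values. With background correction the rise was at least 1.90-fold, taking the detection floor of each scrambled array in place of its own signal. Without that correction the log2 difference was 0.61. Measured log2 means with it were 4.40 ± 0.13 and 6.15 ± 0.06 (SD, n = 3; adjusted p = 1.1e-07, limma, n = 3 per group). The deposited intensity was 110 ± 5.5 and 173 ± 4.4 (SD, n = 3). In the authors' deposited table of folds over scrambled the MMP9 fold was 13.15 and the MMP1 fold 0.18.

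MMP14, the membrane-type collagenase that also activates pro-MMP2, had log2 signals of 6.25, 6.41 and 6.16 on the scrambled arrays and 5.68, 5.95 and 6.13 on the SOX4 shRNA arrays. The groups did not overlap, but the upper SOX4 shRNA value lay just under the lowest scrambled one. The log2 difference of -0.35 ± 0.16 (SE, n = 3 per group; 95% interval -0.67 to -0.034) did not pass the threshold (adjusted p = 0.088, limma).

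**Figure D3:**
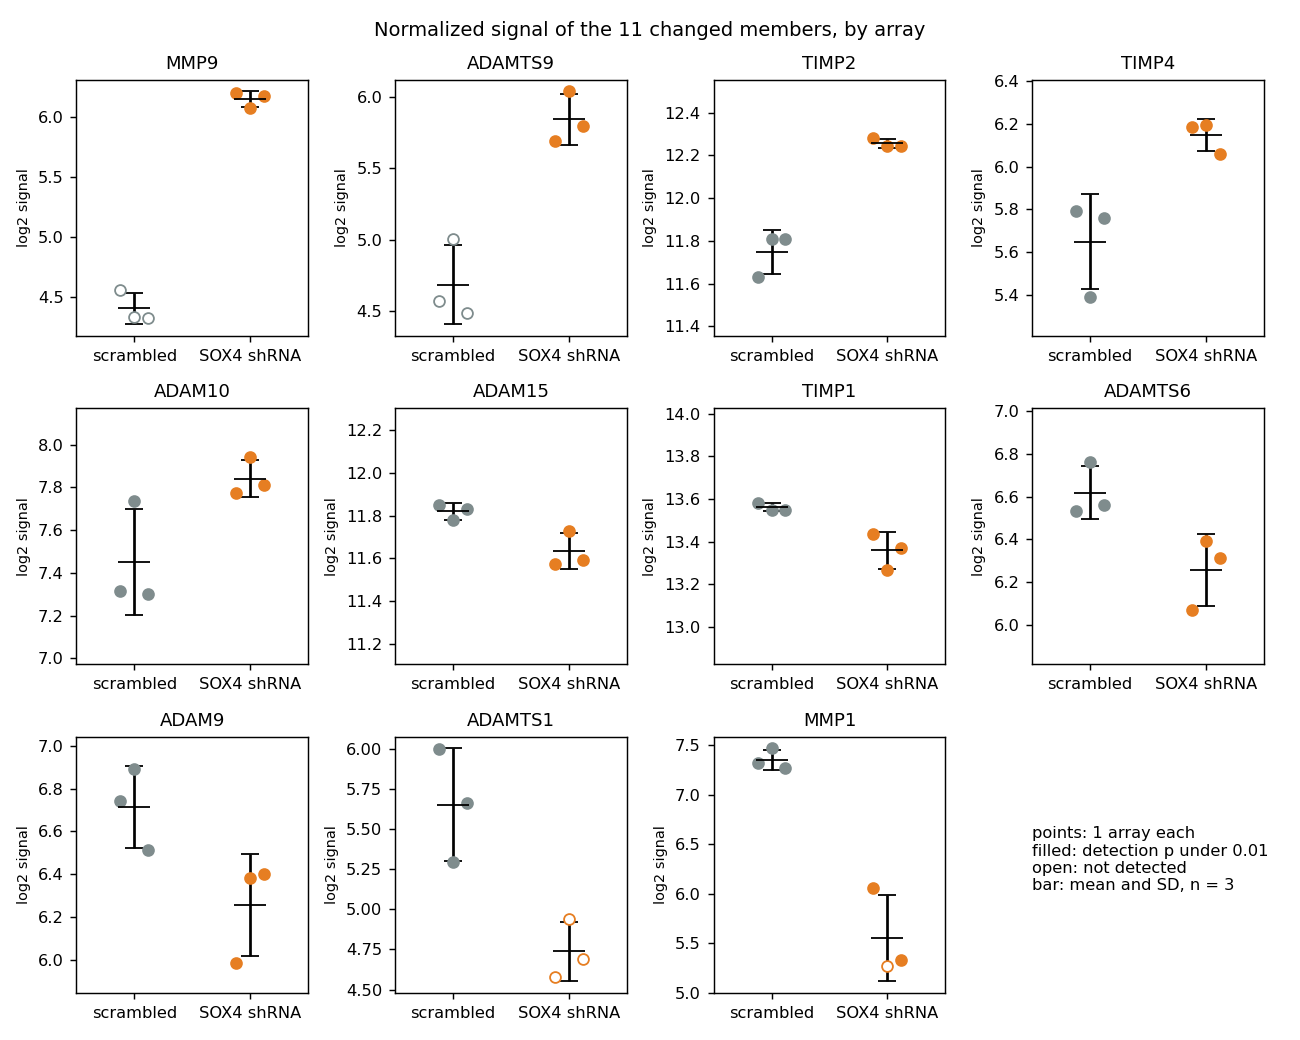
Normalized log2 signal (y axis) of the 11 members that passed the threshold, by group (x axis), with 1 point per array, filled where the probe was detected, and the mean and SD of 3 arrays. In every panel the 3 SOX4 shRNA points lie on 1 side of the 3 scrambled points. MMP9 and ADAMTS9 have open points in the scrambled group and ADAMTS1 in the SOX4 shRNA group, and MMP1 has 1 open point there.

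Of the 6 tested ADAMs, ADAM10 rose, ADAM9 and ADAM15 fell and 3 did not pass the threshold. ADAM10, the sheddase of Notch receptors and of amyloid precursor protein, had log2 signals of 7.32, 7.74 and 7.30 on the scrambled arrays and 7.77, 7.94 and 7.81 on the SOX4 shRNA arrays. Scrambled array 2a lay just under the lowest SOX4 shRNA value, and the other 2 scrambled arrays lay well below it. ADAM10 rose by 0.39 ± 0.11 (SE, n = 3 per group; adjusted p = 0.0078, limma), and its second probe rose by 0.76 ± 0.20. The call was lost without scrambled replicate 1 (0.32, adjusted p = 0.053) or scrambled replicate 2b (0.32, adjusted p = 0.052), both in limma with n = 2 scrambled arrays. In the authors' deposited values the ADAM10 difference was 0.81.

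ADAM17, the enzyme that releases tumour necrosis factor from the membrane, had log2 signals of 7.42, 7.49 and 7.52 on the scrambled arrays and 7.79, 7.27 and 7.51 on the SOX4 shRNA arrays. The groups overlapped, with the SOX4 shRNA arrays on both sides of the scrambled ones. The difference was 0.05 ± 0.11 (SE, n = 3 per group; 95% interval -0.18 to 0.28; adjusted p = 0.78, limma), and its second probe had -0.09. Its sign turned in the authors' deposited values (-0.057) and without SOX4 shRNA replicate 1 (-0.084).

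ADAM9, a sheddase of several growth factor precursors, had log2 signals of 6.74, 6.89 and 6.51 on the scrambled arrays and 5.98, 6.38 and 6.40 on the SOX4 shRNA arrays, where replicate 1 was the lowest. It fell by 0.46 ± 0.14 (SE, n = 3 per group; adjusted p = 0.017, limma). The call was lost without scrambled replicate 1 (-0.45), without scrambled replicate 2a (-0.37), without SOX4 shRNA replicate 1 (-0.32) and in the authors' deposited values (-0.60).

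ADAM15, which has an integrin-binding motif in its disintegrin domain, had a bright probe with log2 signals of 11.85, 11.78 and 11.83 on the scrambled arrays and 11.57, 11.73 and 11.59 on the SOX4 shRNA arrays. It fell by 0.19 ± 0.05 (SE, n = 3 per group; adjusted p = 0.010, limma), a small step outside a tight control range. Of its 4 tested probes another fell, by 0.37 ± 0.07, and 2 did not pass, with differences of -0.22 and 0.15. The call was lost without SOX4 shRNA replicate 1 (-0.16) and in the authors' deposited values (-0.24), where the ADAM15 means were lower, at 7.69 and 7.45. ADAM8 and ADAM19 did not pass. ADAM8, a sheddase first known from myeloid cells, differed by 0.21 ± 0.09 in log2 signal with no overlap between groups (adjusted p = 0.088, limma, n = 3 per group). ADAM19, a sheddase of neuregulin, had -0.15 ± 0.07 with overlap (adjusted p = 0.098, limma, n = 3 per group), and -0.24 with an adjusted p of 0.0081 in limma without SOX4 shRNA replicate 1.

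Among the proteoglycan-cutting ADAMTS enzymes 1 rose and 1 fell. ADAMTS9, which cuts versican and aggrecan, had log2 signals of 4.57, 5.002 and 4.48 on the scrambled arrays, none of them above background, and 5.69, 6.04 and 5.80 on the SOX4 shRNA arrays, all above it. With background correction the rise was at least 1.54-fold, with measured log2 means of 4.68 ± 0.28 and 5.84 ± 0.18 (SD; adjusted p = 0.00011, limma, n = 3 per group). Without that correction the log2 difference was 0.36. ADAMTS1, another versican and aggrecan protease, showed the reverse pattern of detection. Its log2 signals were 5.995, 5.29 and 5.66 on the scrambled arrays and 4.58, 4.94 and 4.69 on the SOX4 shRNA arrays, none of which was above background. With background correction the decrease was at least 1.32-fold, with measured log2 means of 5.65 ± 0.35 and 4.74 ± 0.19 (SD; adjusted p = 0.0022, limma, n = 3 per group). Without that correction the log2 difference was -0.28. In the authors' deposited table the fold was 5.39 for ADAMTS9 and 0.26 for ADAMTS1.

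ADAMTS4, the aggrecanase, was above background on 2 arrays of each group and its groups overlapped, with log2 signals differing by 0.09 ± 0.20 (SE, n = 3 per group; 95% interval -0.33 to 0.51; adjusted p = 0.78, limma). That interval holds changes of either sign, and the sign turned without scrambled replicate 2a (-0.019) or SOX4 shRNA replicate 3 (-0.075). ADAMTS6, which acts on fibrillin microfibrils, had log2 signals of 6.53, 6.76 and 6.56 on the scrambled arrays and 6.07, 6.39 and 6.31 on the SOX4 shRNA arrays. It fell by 0.36 ± 0.14 (SE, n = 3 per group; adjusted p = 0.046, limma). This was the call closest to the threshold. It was lost without any single scrambled array (adjusted p of 0.058, 0.18 and 0.066 in limma), without SOX4 shRNA replicate 1 or 3 (0.19 and 0.066), with cyclic loess normalization (-0.35, adjusted p = 0.057), and in the authors' deposited values (-0.48, adjusted p = 0.068).

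The inhibitors were detected throughout, with TIMP2 and TIMP4 raised and TIMP1 lowered. TIMP2, which inhibits MMPs broadly and also takes part in the activation of pro-MMP2 at the cell surface, had log2 signals of 11.63, 11.81 and 11.81 on the scrambled arrays and 12.28, 12.25 and 12.24 on the SOX4 shRNA arrays. The SOX4 shRNA values lay within 0.04 log2 units of each other and above every control value. TIMP2 rose by 0.51 ± 0.05 (SE, n = 3 per group), or 1.42-fold, with an adjusted p of 6.3e-08 in limma. A second TIMP2 probe rose by 0.50 ± 0.09, and the third was not detected. TIMP4 had log2 signals of 5.80, 5.39 and 5.76 on the scrambled arrays and 6.19, 6.20 and 6.06 on the SOX4 shRNA arrays, with scrambled array 2a the lowest. It rose by 0.50 ± 0.16 (SE, n = 3 per group; adjusted p = 0.021, limma). The TIMP4 call was lost without scrambled replicate 2a (0.37) and without SOX4 shRNA replicate 1 (0.48) or 2 (0.47).

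TIMP1, a secreted inhibitor of many MMPs, had log2 signals of 13.58, 13.55 and 13.55 on the scrambled arrays and 13.44, 13.27 and 13.37 on the SOX4 shRNA arrays. It fell by 0.20 ± 0.05 (SE, n = 3 per group; adjusted p = 0.0024, limma), or 1.15-fold, and the groups did not overlap. TIMP3, the TIMP that is bound to the matrix and inhibits several ADAMs, differed by -0.19 ± 0.10 in log2 signal (SE, n = 3 per group; 95% interval -0.39 to 0.0076; adjusted p = 0.14, limma) with overlap between the groups. RECK, which restrains MMP9, MMP2 and MMP14, had log2 signals of 5.41, 5.76 and 5.62 on the scrambled arrays and 6.11, 6.16 and 5.83 on the SOX4 shRNA arrays. They did not overlap, but the difference of 0.43 ± 0.17 (SE, n = 3 per group) narrowly missed the threshold (adjusted p = 0.052, limma), and its second probe had 0.22 with overlap. RECK passed without scrambled replicate 2a (0.52, adjusted p = 0.042) or SOX4 shRNA replicate 3 (0.53, adjusted p = 0.037), both in limma.

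Promoter sequences are shown for ADAM10 and TIMP4, which rose, and TIMP1, which fell, since each holds a match to a motif searched. They were taken from RefSeq on GRCh38.p14 and cover 250 bases before and 50 bases from the gene start. The promoter table used here matched 11 of the 18 tested members and 5 of the 11 that passed the threshold. The tested members without an entry in that table were MMP1, MMP9, ADAM9, ADAMTS1, ADAMTS4, ADAMTS9 and TIMP2. Capitals mark matches on either strand to AP-1 (TGANTCA), ETS (AGGAAG), SOX (AACAANG) or the kappaB consensus.
ADAM10, chr15:58749658-58749957, minus strand: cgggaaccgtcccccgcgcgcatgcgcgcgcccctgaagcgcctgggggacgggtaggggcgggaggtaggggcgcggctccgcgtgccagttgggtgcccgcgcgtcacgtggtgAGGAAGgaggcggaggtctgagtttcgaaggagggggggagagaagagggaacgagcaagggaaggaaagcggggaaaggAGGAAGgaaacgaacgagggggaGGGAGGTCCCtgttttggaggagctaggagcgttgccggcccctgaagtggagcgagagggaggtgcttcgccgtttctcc
TIMP4, chr3:12158863-12159162, minus strand: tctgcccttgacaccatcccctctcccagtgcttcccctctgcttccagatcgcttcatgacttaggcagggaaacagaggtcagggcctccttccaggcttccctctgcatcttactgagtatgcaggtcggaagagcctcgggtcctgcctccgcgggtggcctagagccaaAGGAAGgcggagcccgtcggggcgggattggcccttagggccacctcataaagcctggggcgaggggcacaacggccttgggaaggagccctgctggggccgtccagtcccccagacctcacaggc
TIMP1, chrX:47582186-47582485, plus strand: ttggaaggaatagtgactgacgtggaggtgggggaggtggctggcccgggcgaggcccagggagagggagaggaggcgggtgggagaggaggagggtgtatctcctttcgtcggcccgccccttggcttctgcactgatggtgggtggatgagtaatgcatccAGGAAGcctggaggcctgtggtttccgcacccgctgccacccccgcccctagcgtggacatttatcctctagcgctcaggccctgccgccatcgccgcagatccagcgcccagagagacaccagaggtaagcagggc

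The ADAM10 window held a kappaB match from base -31 to -22, read on both strands, and ETS matches starting at -134 and -54. TIMP4 and TIMP1 held 1 ETS match each, starting at -76 and -87. Across the 11 windows, ETS matched 4, the kappaB consensus 3 (ADAM10, ADAM17 and ADAM19), SOX 1 (RECK, from -128) and AP-1 0. Of 35116 RefSeq promoter windows of this length, 33.6% held an ETS match, 11.3% a kappaB match, 12.1% a SOX match and 7.71% an AP-1 match. Of the 3 members with a kappaB match, ADAM10 rose and ADAM17 and ADAM19 did not pass. A match describes the letters of the window and not a bound site. Sequences that depart from a pattern in any base were not counted, so a window without a match may still hold a variant site.

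Genes around these enzymes were read from 6 lists, each described by how many of its tested genes passed the threshold. The lists were drawn up with earlier results of these data known. Over all genes and unnamed probes tested, 15.2% rose and 15.4% fell. The shed substrates of ADAM10 and ADAM17 were the longest list, with 16 of 28 tested members raised and 5 lowered and a median log2 difference of 0.33. The largest rises were CXCL16, a membrane-bound chemokine, at least 4.41-fold, TNFRSF1B, a receptor of tumour necrosis factor, by 2.51 ± 0.10 (SE) on the log2 scale, and VCAM1, an adhesion molecule, at least 3.18-fold. CXCL16 and VCAM1 were among the raised genes with no detected scrambled array, which entered the test only through the SOX4 shRNA arrays. With detection required on all 6 arrays, 12 of 24 tested substrates rose and 5 fell, with a median of 0.26. The largest decreases were the Notch ligand JAG1 by 0.71 ± 0.09, the receptor-like protein PTK7 by 0.57 and the receptor kinase MERTK by 0.38. PTK7 lost its call without scrambled replicate 2b (-0.42). In the authors' deposited values 13 of the list rose and 3 fell.

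In the activation and trafficking list, 5 of 12 tested genes rose and 3 fell, with a median of -0.0014. Those raised most were the tetraspanins TSPAN10 (0.56) and TSPAN14 (0.41), partners of ADAM10, and the proprotein convertase PCSK7 (0.42). SH3PXD2A, the invadopodium scaffold TKS5, fell by 0.66 ± 0.07, the ADAM10 partner TSPAN5 by 0.48 and basigin, BSG, by 0.23. BSG had 0.24 in the authors' deposited values, the opposite sign. TSPAN10 lost its call without scrambled replicate 2a (0.34) or without SOX4 shRNA replicate 1, 2 or 3 (0.63, 0.51 and 0.54), and TSPAN14 without scrambled replicate 2b (0.35) or SOX4 shRNA replicate 3 (0.30). Without SOX4 shRNA replicate 3, 3 of the list rose.

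In the list of other inhibitors, 2 of 5 tested genes rose and 2 fell, with a median of 0.14. The Kunitz inhibitor TFPI2 rose by 0.64 and the membrane protein BST2 by 0.49, while the proteoglycan SPOCK1 fell by 0.90 and cystatin C, CST3, a cysteine protease inhibitor, by 0.25. SPOCK1 was detected on 1 of 3 SOX4 shRNA arrays, so its size rests on signals at background, and it ran from -0.30 with no background correction to -1.63 in the authors' deposited values. The list of other metalloproteases and ADAMTS-like proteins, which have no protease domain, had 9 tested genes. In it the endothelin-converting enzyme ECE2 rose by 0.39 and the carboxypeptidase CPD by 0.27, and the carboxypeptidase CPE fell by 2.06 ± 0.14 (SE), with a median of 0.070 over the list. CPE was detected on 2 of 3 SOX4 shRNA arrays and had -0.92 with no background correction and -2.97 in the authors' deposited values. CPD lost its call without SOX4 shRNA replicate 1 (0.22), which left 1 raised gene in that list, and ECE2 lost it in the authors' deposited values (0.35).

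Of 20 tested transcription factors reported to act on MMP promoters, 5 rose and 5 fell, with a median of 0.0081. ETS2 rose by 0.84 ± 0.10 (SE), ETS1 by 0.26 and NFKB1 by 0.25, and LEF1 fell by 1.88 ± 0.15, RUNX1 by 0.84 ± 0.10 and EGR1 by 0.53. LEF1 was detected on 1 of 3 SOX4 shRNA arrays, so its size rests on signals at background, and it ran from -0.79 with no background correction to -2.91 in the authors' deposited values. The 5 tested AP-1 subunits, named after their values were seen, did not pass. JUN, JUND and FOSL1 had differences of 0.05, -0.01 and -0.01, FOSL2 had 0.41 (adjusted p = 0.053, limma) and JUNB had -0.35 (adjusted p = 0.24, limma). These counts moved with single arrays. Without scrambled replicate 1, where NFKB1 lost its call (0.19), 2 rose. Without SOX4 shRNA replicate 1, 3 rose and 3 fell, and 3 fell without scrambled replicate 2a, scrambled replicate 2b or SOX4 shRNA replicate 2. Of 7 tested genes of the plasmin system, which activates several pro-MMPs, the activator PLAT rose by 0.59, and 4 fell, with a median of -0.13. The inhibitor SERPINE2 fell by 1.88 ± 0.07 (SE) and the receptor PLAUR by 0.22. PLAUR lost its call without scrambled replicate 2a (-0.18) or SOX4 shRNA replicate 1 (-0.20), which left 2 lowered genes each. Without scrambled replicate 2b or SOX4 shRNA replicate 2, 2 genes of that list rose.

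**Figure D4:**
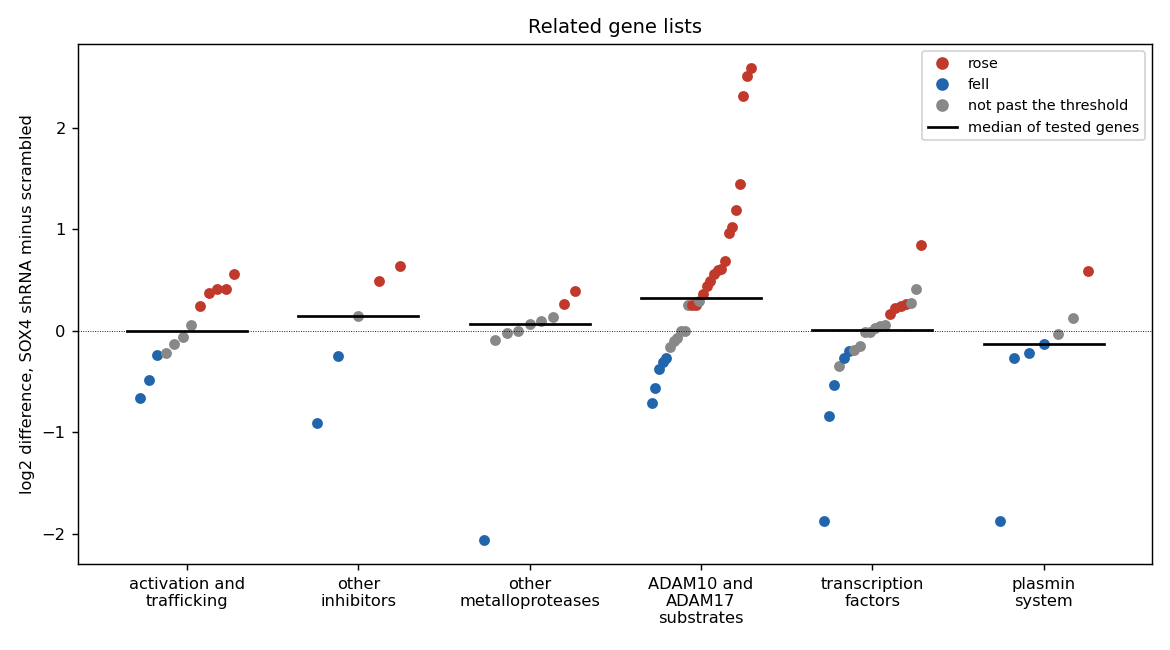
Log2 difference, SOX4 shRNA minus scrambled (y axis), of each tested gene in 6 related lists (x axis), coloured by whether it passed the threshold, with the list's median as a bar. The substrate list has the highest median, 0.33, and the plasmin list the lowest, -0.13.

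**Figure D5:**
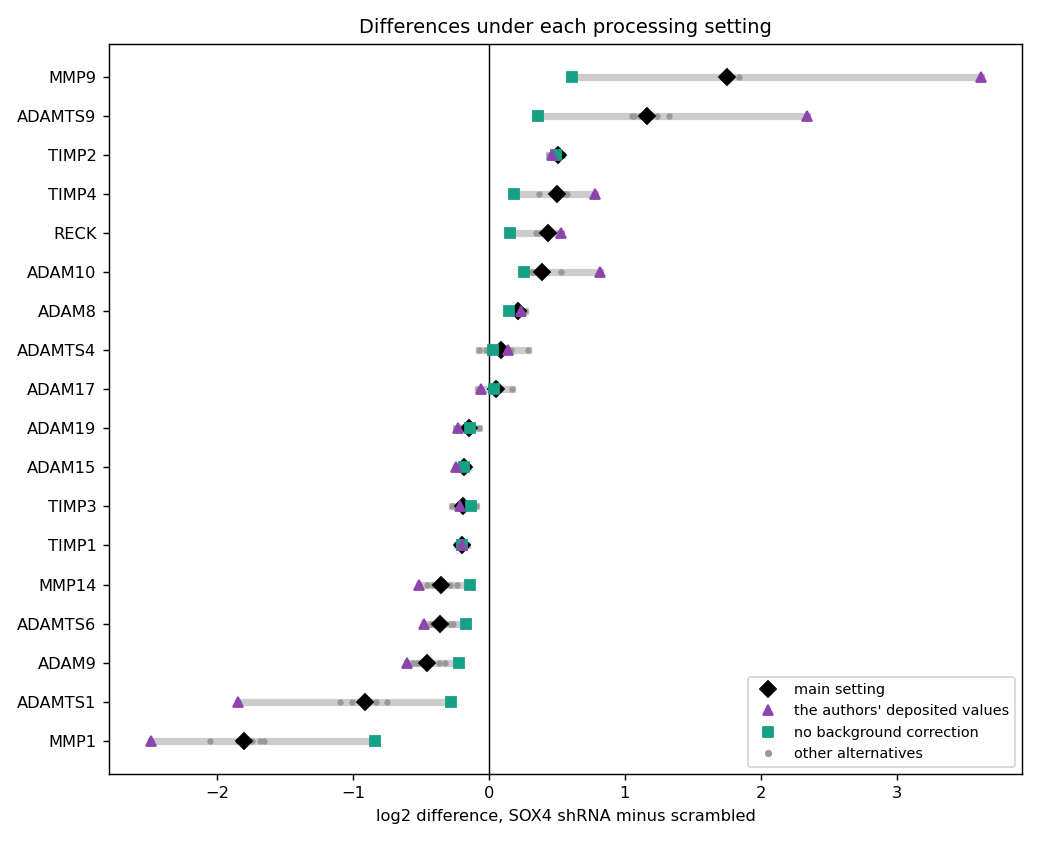
Log2 difference, SOX4 shRNA minus scrambled (x axis), of each tested member (y axis) in the main setting, the authors' deposited values, no background correction and the other alternatives, with a grey bar over their range. TIMP2 stays between 0.45 and 0.54, MMP9 runs from 0.61 to 3.62, and ADAM17 and ADAMTS4 cross 0.

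Other cell types' markers were at or near background. Of the leucocyte, endothelial and fibroblast markers, LYZ, PECAM1, LUM and COL1A1 were detected on at least 1 array, and PTPRC, CD3D, ITGAM, VWF, KDR, CDH5, PDGFRA, DCN and POSTN were among those detected on none. LUM was detected on the 3 SOX4 shRNA arrays and no scrambled array (log2 difference 0.49, adjusted p = 0.069, limma, n = 3 per group). Summed intensity of the fibroblast probes was 1135 to 1173 on the scrambled arrays and 1173 to 1186 on the SOX4 shRNA arrays, and that of the leucocyte probes 1228 to 1270 and 1258 to 1322. The part of these markers in the results was not tested.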

How the data were processed

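Total RNA was hybridised to 6 Illumina HumanHT-12 v4 arrays, read out with GenomeStudio 2011.1, a tool listed in the submitters' processing notes. The authors deposited non-normalized probe intensity on a linear scale, and no value was at or below 0. Any background subtraction is not given in the sources listed for these arrays. Each has a deposited detection p-value beside it. A second deposited table gives log2 values per array. Another gives group means in log2 and their ratio as a linear fold, RMA-normalized with ArrayStar and without genes under 2.5 in both groups, per the file headers. The heading of its non-control column names a different hairpin. Across 22259 genes its log2 folds correlated at 0.996 with differences between the SOX4 shRNA and scrambled columns of the second table. The way probes were joined into genes is not given in the sources used here. Column medians of the second table were 2.80 to 2.82.

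Columns of the intensity table named 2 scrambled arrays replicate 2 and none replicate 3, so these are called 2a and 2b. The number of per-sample columns not used was 0.

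Intensities were processed with neqc in limma 3.58.1 (R 4.3.3; background from detection p-values, offset 16, quantile normalization, log2). Probes detected on at least 3 of 6 arrays were kept, 15717 of 47322, and the brightest stood for its gene, giving 12451 rows. lmFit and eBayes with an intensity trend compared 3 with 3 arrays, with Benjamini-Hochberg adjustment over all rows. Between 15197 and 16187 probes were detected per array. Exact permutation of 3 against 3 arrays cannot give a p below 0.1, so the limma fit was used. The number of arrays limits the precision. Where 1 group had no detected array, the fold is a bound against the lowest detected signal or the probe's own, whichever was higher. Such a bound holds for the background-corrected signals only and takes no account of sampling error. The fit was also run on simulated data whose changed genes were drawn from brighter probes, so that run does not cover dim members such as MMP9 and ADAMTS1. Members and lists were chosen with earlier results of these data known, and every member is named. From each related list up to 3 raised and 3 lowered genes are named, except that some items are not reported here, plus the tested AP-1 subunits, chosen after their values were seen. Each result was recomputed with raw background, with cyclic loess, on the authors' values, with 2 other detection filters, with every kept probe, with a replicate block and without each array in turn. Figures used matplotlib 3.10.9.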

Additional observations from a re-analysis of the deposited data

How the results depend on the processing

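Of the 11 members that passed the threshold, 6 passed it under every alternative that gave a value: MMP1, MMP9, ADAMTS1, ADAMTS9, TIMP1 and TIMP2. Of the 18 tested members, 16 kept their sign throughout, the exceptions being ADAM17 and ADAMTS4. Leaving out single arrays gave -0.084 to 0.17 for ADAM17 and -0.075 to 0.29 for ADAMTS4. The number of changed members ran from 8 to 11, of 18 tested in most settings. It was 9 of 73 with all probes tested and 8 of 13 with detection on all 6 arrays. Over all genes, 3042 of 34696 and 3523 of 10974 changed in those settings, in that order. In the authors' deposited values 5 rose and 3 fell, as ADAM9, ADAM15 and ADAMTS6 lost their calls. Those values are per gene and need not follow the brightest probe. ADAM19 had 1.64 to 2.20 there, beside log2 means of 10.78 and 10.63 here, so its kept sign does not describe the tested probe. ADAM15 had means of 7.69 and 7.45 there, beside 11.82 and 11.63 here. With all probes tested, ADAMTS6 and TIMP4 lost their calls. Requiring detection on all 6 arrays left 13 members, without MMP1, MMP9, ADAMTS1, ADAMTS4 and ADAMTS9. RECK passed with cyclic loess (0.45) and with detection on all 6 arrays. Fitted sizes of dim members depended on the processing. MMP9 had 0.61 with no background correction, 1.75 in the main setting and 3.62 in the authors' values. With no background correction and in the authors' values, MMP1 had -0.84 and -2.49, ADAMTS9 0.36 and 2.34 and ADAMTS1 -0.28 and -1.85. SOX4 itself had -1.23 and -3.22 in those settings. TIMP4 ran from 0.19 to 0.78 over the alternatives, while TIMP2 stayed between 0.45 and 0.54. The authors' values may differ in more than the background step, and the cause of their sizes was not tested. The median difference of the tested members, -0.05, was 0.049 without SOX4 shRNA replicate 2.

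Among the related lists the authors' values gave 3 lowered substrates, 3 raised transcription factors and 1 raised gene among the other metalloproteases, and testing all probes gave 3 raised and 3 lowered transcription factors.

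The replicate number could be used as a block only in the authors' values. Same-numbered samples did not deviate together across genes (correlations 0.016, -0.0052 and -0.023). These values cannot show whether such samples were prepared together. With that replicate block 5 members rose and 3 fell, 2516 of 11486 genes changed in all against 2692 without it, ADAM17 had -0.057 and BSG 0.24. A slide block could not be fitted, since no slide is named in the files used here.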

Other observations

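The authors' 2 deposited tables disagree about TIMP2. The authors' deposited table of folds gives TIMP2 log2 means of 7.51 and 7.49 and a fold of 0.99, while the means of the authors' deposited values were 7.52 for the scrambled and 7.98 for the SOX4 shRNA arrays, a difference of 0.46. Of 35 members in both tables TIMP2 alone was apart by more than 0.3 on the log2 scale. Over all genes 81 of 22259 (0.364%) were apart by that much, with 0 among 13321 genes that have 1 probe on the array and 77 among 5570 that have several. TIMP2 has 3 probes, of which 2 rose here and 1 was not detected. The cause was not tested.

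Several undetected members also carry sizeable folds in the authors' deposited table, with log2 means between 2.05 and 3.43 and chosen here after their values were seen: MMP15 with 0.49, MMP26 with 0.50, ADAM29 with 1.79, MMP11 with 1.54 and ADAMTS7 with 0.67. None of these was detected on any array at a detection p under 0.01.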
